A study of Macaca mulatta with 23 samples.

Results

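The shores of very dense CpG runs are the DNA within 2000 bp of places where measured cytosines lie packed together. A dense run was a chain of at least 50 measured autosomal positions in which neighbours lay at most 200 bp apart. A shore position was any position outside such a run but within 2000 bp of the edge of one. By this rule 12224 positions were shore positions, 2.85% of the autosomal positions and 12224 of the 444312 positions in the whole table. The table holds 953 dense runs on the autosomes, with 68162 positions, and 470 of these runs had at least 1 shore position. The remaining 348152 autosomal positions, here called distant, lay more than 2000 bp from any dense run.

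The assay was reduced representation bisulfite sequencing, which reads methylation at the CpG-rich part of the genome, with 1 library from each of 23 young rhesus macaques. The tissue was the central amygdala nucleus, an output station of the amygdala with a part in fear and anxiety. The samples came from the right hemisphere in 12 monkeys and from the left in 11, and each monkey had an anxious temperament score (-1.48 to 1.43) and an age (1.1 to 2.13 years). No treatment or genotype is given in the labels, so the comparisons were with the score, age and hemisphere, and between classes of positions within the same monkeys. Monkeys are named by hemisphere and a number within it. The tissue holds neurons and glia together, so a level is a mean over cell types, and a change in cell makeup cannot be told apart from a change within cells.

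In mammals most CpG cytosines are methylated, while CpG islands, which often hold gene promoters, are kept free of methylation in most tissues. The flanks of islands, called shores, are known from human studies as places where the unmethylated state of the island gives way to the methylated state of the surrounding genome, and where levels differ between tissues and in cancer. The enzyme MspI cuts at CCGG, so this assay sees a shore only where it too holds such cut sites. The measured shores are therefore the CpG-rich parts of the flanks. Reads were placed on the human build hg19, and no gene annotation of that build was at hand, so loci are given by coordinate and chromosome band without gene names or sequence.

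Distances to the nearest edge began just beyond 200 bp and ended at 1998 bp. The lower limit is set by the rule, because any position nearer than that joins the run. Dense runs had a median of 63 positions over 427 bp. A run with a shore had a median of 20 shore positions and at most 134, and the 50 runs with the most shore positions held 27.1% of all members. Most members were not lone cytosines. Of all shore positions, 91.2% lay in smaller chains of 10 to 49 positions, 8.36% in chains of 3 to 9 and 0.409% in chains of 1 or 2. No position in the table was covered in fewer than 17 monkeys, and 5471 shore positions (44.8%) were covered in all 23, against 34.6% of distant positions. Read depth is not in the table and is unknown. Left 3 lacked 45.2% of its shore values, against a median of 2.23% over the libraries. In right 9, 45.6% of the values at shore positions of intermediate level were exactly 0 or 100%, where the other libraries had at most 10.2%. The level of a monkey over a set of positions was therefore taken as the mean of the position means plus that monkey's mean deviation from them, which depends less on the positions it lacks than a plain mean does.

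The shores were mostly unmethylated. Over shore positions the monkeys had a lowest level of 14.2% (right 11), a median of 15.2% and a highest level of 16.1% (left 7), with a mean of 15.1% ± 0.504 (SD, n = 23). That mean comes from a minority of positions, since the median position stood at 1.73%. Means under 20% were found at 79.8% of shore positions, intermediate means from 20% to 80% at 12%, and means over 80% at 8.13%. Distant positions gave 56.8%, 19.2% and 24% for the same classes. Plain means over the values each monkey had would have put left 3 at 9.4% and right 9 at 12%, with the other monkeys between 13.4% and 16.1%. With the adjusted mean used here left 3 stood at 14.6% and right 9 at 15.8%.

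Methylation was higher farther from the runs. The level was 11.5% ± 0.532 up to 500 bp from the edge, 14.6% ± 0.555 from there to 1000 bp, 18.8% ± 0.675 from there to 1500 bp and 21.2% ± 0.49 out to 2000 bp (SD, n = 23 each). Each step was upward in 23 of 23 monkeys. The share of positions under 20% was 85.5% in the nearest bin, then 80.3%, 74.5% and 70.7%. The median position moved far less than the mean, with 1.27%, 1.74%, 2.61% and 3.44% in the same bins. The outermost bin still held mostly unmethylated positions, with 11.2% of them over 80%, against 6.22% in the nearest bin. Far shore positions, beyond 1000 bp, averaged 19.8% ± 0.551, against 13.1% ± 0.529 for near shore positions up to 1000 bp. The difference per monkey was lowest at 5.92 points in right 9, had a median of 6.82 and was highest at 7.51 in left 4. It averaged 6.75 ± 0.402 points (SD, n = 23; 2-sided sign-flip permutation p = 1e-05, the smallest that 100000 resamples can give). Within monkeys with identifiers starting with r it was 6.75 points and within those starting with B also 6.75. It was 4.4 points at positions with values in all monkeys and 3.61 points at runs of at least 100 positions. The test treats monkeys as the replicates and the positions as fixed, so it speaks of these sites and not of shores in general.

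**Figure D1:**
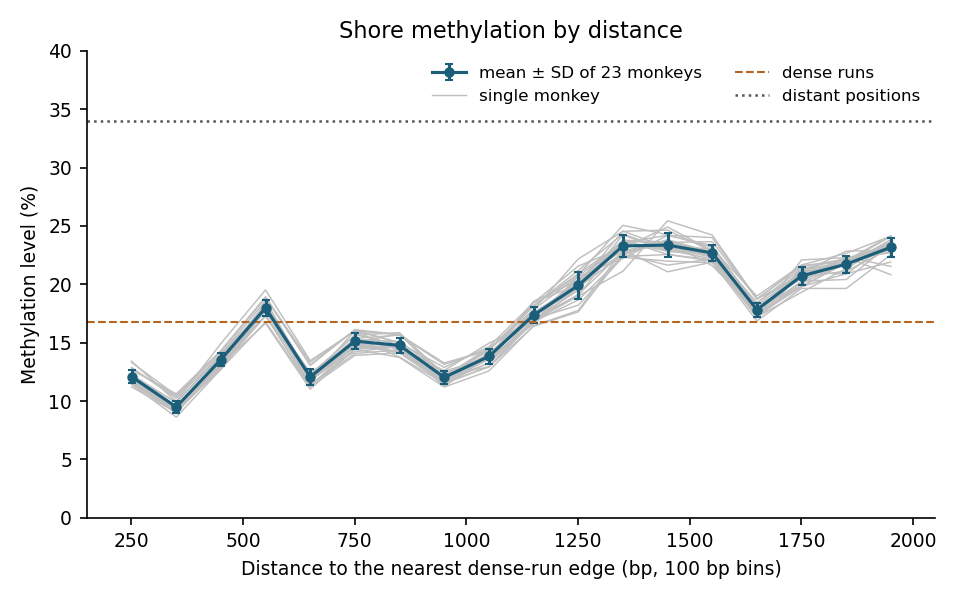
Methylation level of shore positions (%, y axis) in 100 bp bins of distance to the nearest dense-run edge (x axis), with 1 grey line per monkey and the mean ± SD of 23 monkeys in blue; the dashed and dotted lines are the mean levels of dense runs and of distant positions. The level was 12.1% in the first bin and 23.2% in the last, with a local high of 18% at 500 to 600 bp and a local low of 17.8% at 1600 to 1700 bp, both seen in all 23 monkeys.

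The increase was not smooth at finer scale. In 100 bp bins the level was 9.5% ± 0.545 at 300 to 400 bp, 18% ± 0.687 at 500 to 600 bp, 12% ± 0.574 at 900 to 1000 bp and 23.4% ± 1.03 at 1400 to 1500 bp (SD, n = 23 each). Different runs supply different bins: 180 runs had positions at 300 to 400 bp and 58 at 1400 to 1500 bp. At the outer limit set by the rule, the 251 positions in the last 100 bp inside it had a mean level of 23.2%, and the 211 positions in the first 100 bp outside it had 20.7%. At the inner limit, positions at 200 to 300 bp (n = 1024, from 123 runs) had 12.1%. Dense-run positions within 100 bp of their own edge had 13.4%, taken over all dense runs, with or without a shore. These values therefore come from different sets of runs.

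Runs themselves were not all unmethylated, and shore levels differed by the level of the run. Among the 470 runs with a shore, 371 had a run mean under 20%, 87 lay between 20% and 80%, and 12 lay over 80%. These classes were chosen after the levels were known. Shores of runs under 20% had a level of 6.89% ± 0.526, shores of the runs between 20% and 80% had 45.8% ± 0.75, and shores of the runs over 80% had 75.7% ± 1.38 (SD, n = 23 each). The own means of these 3 classes of runs were 2.73%, 50.6% and 83.9%. Across the 470 runs, the run level and the shore level had a Pearson correlation of 0.709 and a Spearman correlation of 0.557, given as a description, since the points share libraries and differ in their number of positions. The Spearman correlation of run size with shore level was -0.0314.

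Over pooled positions, the difference between far and near had opposite signs in the 2 larger classes of runs. The classes were cut on run levels of these same data, and run and shore levels were correlated. The sign within a class is therefore not independent of the cut, and its p does not test distance alone. For runs under 20%, shore levels were 3.87%, 5.17%, 10.9% and 15.4% in the 4 distance bins from near to far. Far positions stood at 12.7% ± 0.555 and near positions at 4.51% ± 0.565 (SD, n = 23 each), a difference of 8.2 ± 0.443 points that was positive in 23 of 23 monkeys (sign-flip permutation p = 1e-05). For runs between 20% and 80% the same bins gave 50.3%, 48.3%, 50.1% and 31.5%. The first 3 bins differed little, and the fall lay in the last one, with 444 positions. Far positions there stood at 39.7% ± 0.816 and near positions at 49.1% ± 0.818, a difference of -9.48 ± 0.68 points that was negative in 23 of 23 monkeys (sign-flip permutation p = 1e-05). The 12 runs over 80% had only 84 far and 112 near positions, at 75.2% ± 1.57 and 76% ± 1.78, a difference of -0.788 ± 1.98 that did not pass the test (sign-flip permutation p = 0.0705). No run in this class had both near and far positions, so its difference is between different runs and not along a shore. At positions complete in all monkeys the differences of these 3 classes, from low to high runs, were 4.39, -12.5 and -21.2 points. The last of these was again between different runs.

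**Figure D2:**
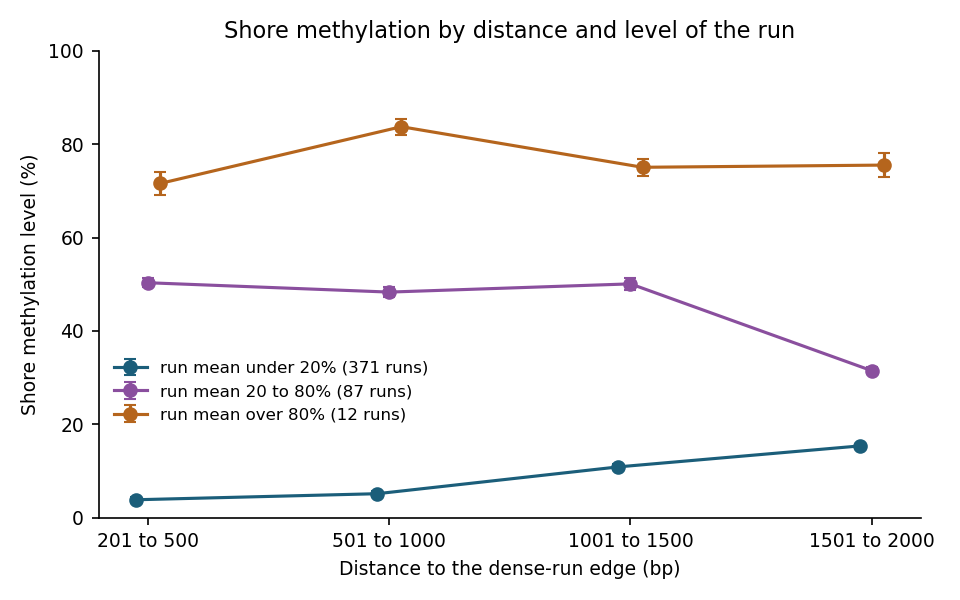
Shore methylation level (%, y axis; mean ± SD of 23 monkeys) in 4 bins of distance to the dense-run edge (x axis), for runs with a mean under 20%, of 20% to 80% and over 80%. Levels climbed with distance to 15.4% at runs under 20%, and stood at 31.5% in the last bin of runs between 20% and 80%.

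The distance bins are fed by different runs, so the gradient was also taken within runs. In the 141 runs that had both near and far shore positions, far positions were higher than near ones by 3.63 ± 0.458 points with runs weighted equally (SD, n = 23 monkeys; sign-flip permutation p = 1e-05). This value changed sign among positions with a value in all 23 monkeys, where it was -1.43 ± 0.502 points over 61 runs. It also did so among strand pairs whose members lay within 20 points, where it was -1.39 ± 0.673 points over 43 runs. Both reversed values had a sign-flip permutation p = 1e-05 as well. Far positions were higher in 85 of the 141 runs, in 28 of the 61 and in 21 of the 43. The test takes the runs as fixed, so its p does not measure the spread between runs. The within-run difference was 0.772 ± 0.824 points with dense runs of at least 100 positions and 5.53 ± 0.355 with those of at least 30. Far positions were over 10 points higher in 30 of the 141 runs, over 10 points lower in 16, and within 10 points in 95. A level cannot be negative, so the lower count could come only from runs whose near positions stood above 10%. The median of the 141 runs had a difference of 0.259 points. Among the 107 such runs with a mean under 20% the difference was 5.71 ± 0.553 points, with far positions higher in 69 runs and lower in 38. It was 0.375 points in the 48 of them that could be compared at complete positions. Among the 34 such runs between 20% and 80% it was -2.92 ± 1.2 points, with far positions higher in 16 runs and lower in 18, and by over 10 points in 7 and 9 of them. At complete positions 13 of these runs remained, with a difference of -8.08 points.

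Shores had a lower level than the runs in the pooled means and a higher one within runs. Over all positions, shores averaged 15.1% ± 0.504 and dense runs 16.7% ± 0.563 (SD, n = 23 each), a difference of -1.59 ± 0.124 points (sign-flip permutation p = 1e-05). With dense runs of at least 100 positions it was -0.119 ± 0.462 (sign-flip permutation p = 0.226), and with those of at least 30 it was -0.0795 ± 0.12 (sign-flip permutation p = 0.00521). Within the 470 runs that had a shore, each weighted equally, the shore was 4.3 ± 0.29 points above its own run (SD, n = 23; sign-flip permutation p = 1e-05), an alternative chosen after seeing the data. The 470 runs with a measured shore had a mean run level of 13.7%, and the 483 runs without one had 18.6%. The shore stood over 10 points above its own run in 101 runs, over 10 points below it in 51 and within 10 points in 318. The median difference of a shore from its own run was only 0.293 points. Of the 371 runs under 20%, 77 had a shore over 10 points higher and 8 one over 10 points lower. A level cannot be negative, so only runs above 10% could have a shore over 10 points lower, and the mean of this class was 2.73%. The counts over all runs carry the same limit. Of the 87 runs between 20% and 80%, 23 had a higher and 37 a lower shore by the same measure. The classes were cut on the run level, which itself enters these differences.

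**Figure D3:**
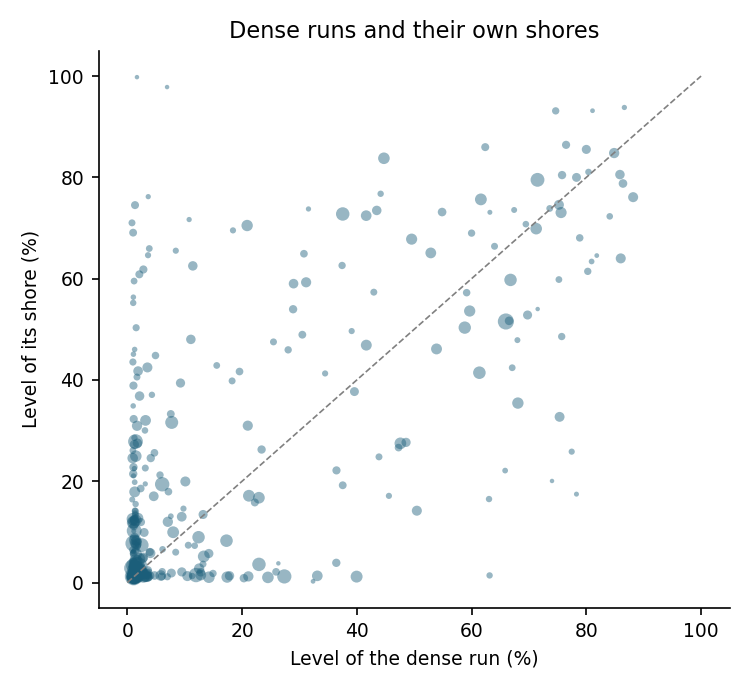
Mean level of each dense run (%, x axis) and of its own shore (%, y axis) for the 470 runs with a shore; larger points have more shore positions and the dashed line marks equality. Most points crowd near 0 on both axes, with a column of low runs whose shores reach high levels and a row of partly methylated runs whose shores stay near 0.

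The 5 runs with the most shore positions all had shore levels under 10%. The run on chromosome 17 from 37761747 to 37762316 (17q12) held 111 positions at 1.85% ± 0.531, and its 134 shore positions had a lowest monkey at 2.36%, a median of 2.87% and a highest at 5.21%. Its far positions stood at 3.73% and its near positions at 2.35%. At the run on chromosome 15 from 31619399 to 31619643 (15q13.3), the 114 shore positions averaged 1.18% ± 0.676 (SD, n = 23). Its highest monkey stood at 2.92%. The run on chromosome 20 from 306658 to 307114 (20p13) had 108 shore positions, at 5.95% in the far part and 1.15% in the near part. The run on chromosome 6 from 20403026 to 20403480 (6p22.3) had 99 shore positions that averaged 1.44% ± 0.617 (SD, n = 23). On chromosome 14 from 105634190 to 105634486 (14q32.33), the shore differed between its sides. Its 40 positions below the run had a mean of 15.9% and its 55 positions above it 1.75%.

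High shores beside low runs were uncommon. Of all 371 runs with a mean under 20%, 18 had a shore over 50%. Of the 248 runs with at least 20 shore positions, 197 had a run mean under 20%, and of these 180 also had a shore under 20% and 1 had a shore over 50%. That one, with the highest shore of its kind, was the run on chromosome 15 from 40660151 to 40660477 (15q15.1). Its 28 shore positions, all above the run from 40660772 to 40662053, stood at 62.1% ± 2.84 and the run at 11.4% ± 1.78 (SD, n = 23 each). The monkeys ranged from 54.6% to 66.6% at that shore with a median of 62.6%. Its far positions stood at 61.2% and its near positions at 64.1%. The next highest were a run on chromosome 8 from 145697984 to 145698268 (8q24.3), with a shore level of 47.8% ± 4.59 and a run level of 11%, and a run on chromosome 22 from 23523399 to 23523842 (22q11.23), with a shore level of 42.2% ± 7.83 and a run level of 3.47% (SD, n = 23 each). The shore on chromosome 22 had the widest range of these, from 23.6% to 53.6% with a median of 44.4%.

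At the other end stood shores with levels under 1%. The 46 shore positions of the run on chromosome 16 from 79633233 to 79633902 (16q23.2) had a lowest monkey at 0.261%, a median of 0.608% and a highest at 2.04%. On chromosome 4, the 28 shore positions of the run from 149365298 to 149365943 (4q31.23) lay between 1768 and 1976 bp from its edge and still averaged 0.763% ± 0.596 (SD, n = 22). The 20 shore positions of the run on chromosome 7 from 143059489 to 143060156 (7q34) averaged 0.777% ± 0.639 (SD, n = 22). One monkey had no value at each of the last 2 shores. The 3 runs with the highest level among those with at least 20 shore positions had shores that were methylated too. The run on chromosome 8 from 144940331 to 144940654 (8q24.3) had a shore level of 76.9% ± 3.65 and a run level of 88.2% ± 1.1 (SD, n = 23 each). The run on chromosome 14 from 102973075 to 102973888 (14q32.31) had a shore level of 77% ± 9.07 (SD, n = 19) and a run level of 86.6%. The monkeys at that shore had a lowest level of 40.9%, a median of 78.7% and a highest level of 83.6%. The run on chromosome 22 from 39884189 to 39884736 (22q13.1) had a shore level of 63.6% ± 3.48 (SD, n = 22) and a run level of 85.4%.

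Shores were less methylated than distant DNA, also in chains of the same size class. Chain size counts the listed positions and is a coarse stand-in for local density, and sizes within a class were not matched. Over all positions, shores averaged 15.1% ± 0.504 and distant positions 34% ± 0.677, a difference of -18.9 ± 0.516 points (SD, n = 23). Among positions in chains of 10 to 49, shores had 14.4% ± 0.512 and distant positions 27.9% ± 0.577, a difference of -13.5 ± 0.37. Among positions in chains of 3 to 9, shores had 22.4% ± 0.848 and distant positions 48.5% ± 1.07, a difference of -26.1 ± 0.53. In chains of 1 or 2 there were only 50 shore positions, and the difference was -13.5 ± 1.62. Each of these differences was negative in 23 of 23 monkeys (sign-flip permutation p = 1e-05, adjusted p = 1e-05 over the 3 density classes). Limited to strand pairs within 20 points, the difference in chains of 3 to 9 was -13.4 points. With dense runs of at least 100 positions, the difference over all positions was -12.3. The difference was also negative on each of the 22 autosomes.

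**Figure D4:**
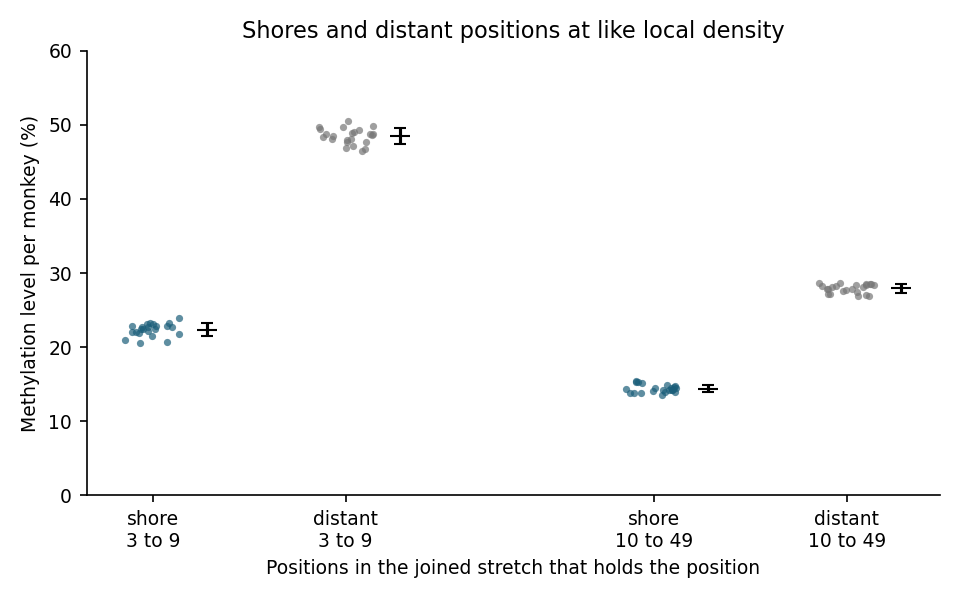
Methylation level per monkey (%, y axis) at shore and distant positions, by the number of positions in the chain that holds them (x axis); each point is 1 of 23 monkeys and the bars are mean ± SD. Shores lie below distant positions of the same chain-size class in every monkey. The means are 22.4% against 48.5% for chains of 3 to 9 and 14.4% against 27.9% for chains of 10 to 49. The 50 shore positions in smaller chains are not drawn.

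Chains made wholly of shore positions, here called stretches, were also mostly low. There were 630 stretches of 3 to 49 positions, of which 455 had a level under 20%, 162 between 20% and 80%, and 13 over 80%. Of the 179 far stretches 60.9% were under 20%, and of the 451 near stretches 76.7%. Among stretches of 10 to 49 positions, 75.8% of 476 shore stretches and 50.4% of 12591 distant stretches were under 20%. For those of 3 to 9 positions the shares were 61% of 154 and 19.1% of 17314. Inside a stretch, the SD between its position means had a median of 1.5 points in shores and 12.9 points in distant DNA at 10 to 49 positions. Among stretches between 20% and 80% the medians were 26.2 points (103 shore stretches) and 30.3 points (5575 distant stretches). Positions within a stretch are close neighbours and are not independent.

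Positions at neighbouring bases were taken as the 2 strands of a CpG. Of shore positions, 58.9% had their partner strand listed, in 3597 pairs, and of distant positions 46.5%. The 2 strands differed by over 20 points in 4.14% of shore pairs (149 pairs), in 12.1% of distant pairs and in 3.1% of dense-run pairs. The table does not say which of these human-build cytosines exist in the macaque genome, and the part of strand differences in the levels was not tested. At pairs within 20 points the shore level was 12.3%, that of dense runs 14.5% and that of distant positions 25.2%, and far shore positions exceeded near ones by 7.18 ± 0.404 points (SD, n = 23).

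Most shore positions varied little between monkeys. The range over monkeys was under 10 points at 54.8% of shore positions and over 50 points at 8.34% (1019 positions). Distant positions gave 37.8% and 15.6%. The SD between monkeys had a median of 1.78 points up to 500 bp, 2.2 from there to 1000 bp, 2.63 from there to 1500 bp and 3.17 out to 2000 bp. Far positions had a median SD of 2.87 points and near positions 1.98, a difference of 0.886 (jackknife SE over monkeys 0.178). Within classes of like mean level, far positions were not regularly the more variable. At the 8593 shore positions with means under 5%, far and near positions both had a median of 1.48 points. For means of 5% to 20% the medians were 5.78 points far and 6.09 near, and for 20% to 40% they were 12 and 12.5. For 40% to 60% they were 15.8 and 15.7, and for 60% to 80% they were 13 and 14.2. For 80% to 95% they were 7.85 and 8.4, and over 95% they were 3.39 and 3.23. The 1472 shore positions with a mean between 20% and 80% had a median SD of 13.6 points (jackknife SE 1.39), against 14.9 at distant positions. In chains of 10 to 49 the values were 13.5 at shore and 14 at distant positions, and at positions complete in all monkeys 10.8 and 12.3. No test was run on these spreads, since positions are not replicates. Positions where at least 2 monkeys stood at 10% or less and at least 2 at 90% or more numbered 13 in shores (0.106%) and 0.538% of distant positions. The mean absolute deviation of a library from the position means was 6.92 points in right 9 and between 2.39 and 3.6 in the other 22.

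**Figure D5:**
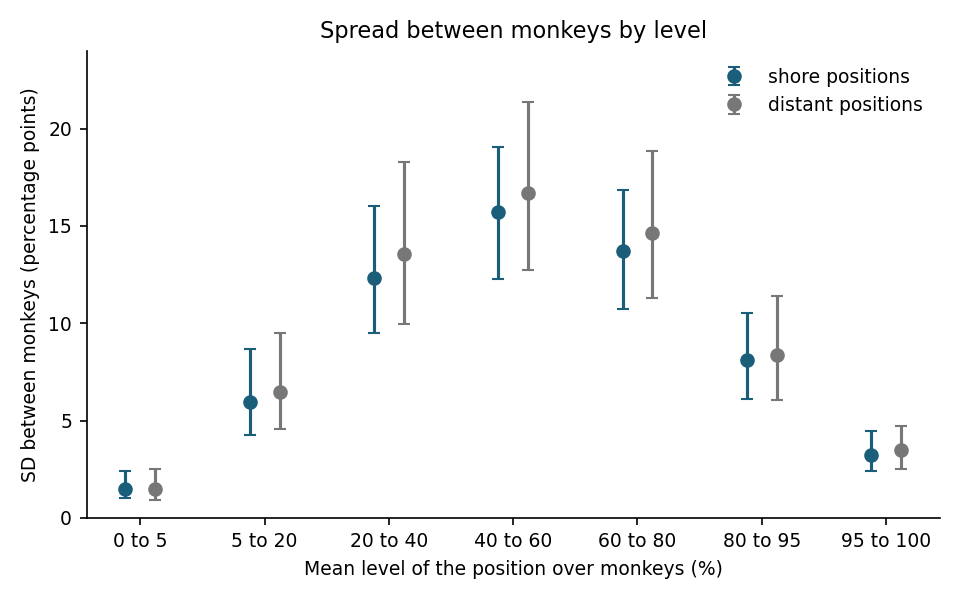
SD between monkeys (percentage points, y axis) by the mean level of the position (%, x axis), as median and quartiles over shore and distant positions. Medians peak at 15.7 points for shores and 16.7 points for distant positions at means of 40% to 60% and fall to 1.48 and 1.46 at means under 5%.

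The study asked how methylation varies with anxious temperament, with age as covariate. The shore level was not detectably related to the score (Pearson r = 0.119, permutation p = 0.586, adjusted p = 0.721). Spearman's rho was 0.144 (permutation p = 0.506; 0.674 adjusted). Its slope adjusted for age was 0.0848 ± 0.151 points per score unit (SE, n = 23). Without left 11 and right 4, which had the highest and the lowest score, r was 0.145. It was 0.342 in the 12 monkeys of the r series and -0.0909 in the 11 of the B series. The difference between far and near shores had a Pearson r of -0.211 with the score (permutation p = 0.334; 0.669 adjusted) and a rho of -0.164 (permutation p = 0.455; 0.674 adjusted). Without the same 2 monkeys r was 0.0386. Within the series r was -0.0909 and -0.346. This call changed at positions complete in all monkeys, where r was -0.533 (permutation p = 0.00933, adjusted p = 0.0373; rho = -0.532, permutation p = 0.0099). There the difference spanned only 4.12 to 4.84 points, and r was -0.894 in the B series but -0.128 in the r series. Without the 2 monkeys with the extreme scores, r at complete positions was -0.598. Tests were 2-sided and the family held 4 relations with score and age.

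Age had a Pearson r of 0.0806 with the shore level (permutation p = 0.721; 0.721 adjusted) and a rho of 0.0247 (permutation p = 0.911; 0.911 adjusted). Left 1 and right 2 lay farthest from the median age, and r was 0.0258 in their absence. Its correlation was -0.426 in the r series and 0.457 in the B series. With the difference between far and near the values were r = 0.24 (permutation p = 0.276; 0.669 adjusted) and rho = 0.332 (permutation p = 0.123; 0.492 adjusted). Here r was 0.352 in the absence of the same 2 monkeys, 0.484 in the r series and 0.243 in the B series. Right samples had a shore level of 15.2% ± 0.497 (SD, n = 12) and left samples 15.1% ± 0.528 (SD, n = 11), a difference of 0.118 points (permutation p = 0.583, adjusted p = 0.878). Their differences between far and near were 6.74 ± 0.384 and 6.76 ± 0.44 points (right minus left -0.0266, permutation p = 0.878, adjusted p = 0.878).

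Single shore positions were then read out of a fit over all 192151 testable positions of the table. Of the 12224 members, 4223 (34.5%) entered the fit, which needed values from 20 or more monkeys and a spread of 10 points or more between the lowest and the highest. For the score, 0 shore positions had a limma adjusted p under 0.05, where 0% of all tested positions did, and no shore position had an adjusted p below 1. An unadjusted p under 0.05 was found at 96 shore positions (2.27%), 48 up and 48 down, beside 3.12% of all tested positions (1.49% up and 1.63% down). The median slope was 0.218 points per score unit over the shore positions tested and 0.0913 over all positions tested. Of the 298 shore stretches tested, 0 passed (limma; background 0%), with 6 at an unadjusted p under 0.05 (2.01%, background 3.2%), 3 up and 3 down (background 1.42% up and 1.78% down).

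The shore position with the smallest p for the score was at chromosome 15, 40661875 (15q15.1), in the high shore of the low run described above and 1398 bp from its edge. Its lowest level was 73% (left 6), its median 89% and its highest 100%, and for each unit of score it changed by -7.52 ± 1.88 points (SE, n = 22; limma adjusted p = 1). At chromosome 19, 5231350 (19p13.3), levels ran from 90% to 100% with a median of 97.5% and a slope of 2.74 ± 0.763 (SE, n = 20; limma adjusted p = 1). Both positions were methylated in every monkey. The position at chromosome 17, 36105708 (17q12) had the widest range of the 5 named, 44% to 100% with a median of 72%, and a slope of -12.95 ± 4.05 (SE, n = 21). Those at chromosome 4, 100572949 (4q23) and chromosome 22, 51158694 (22q13.33) had slopes of -5.73 ± 1.85 (SE, n = 20) and -8.17 ± 2.65 (SE, n = 21). All 5 lay in methylated parts of shores, with means of 69.5% or more. Right 4, with the lowest score, stood at 100% at each of those with a negative slope, as did other monkeys. At the chromosome 19 position, with its positive slope, right 4 was lowest at 90%. Among stretches, the leading one held 6 positions on chromosome 11 from 1767975 to 1768079 (11p15.5) and ran from 8.83% to 67% with a median of 22.3%. For each unit of score it changed by -9.38 ± 3.07 points (SE, n = 22; limma adjusted p = 1), with right 4, the monkey with the lowest score, at 67% and the others at 39.2% or less. The stretches on chromosome 19 from 49002829 to 49002994 (19q13.33) and from 7585423 to 7585506 (19p13.2) had slopes of 2.91 ± 1.01 and -5.78 ± 2.51 (SE, n = 23 each).

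For age, 2 shore positions passed the limma test, both upward, or 0.0474% of those tested, beside 0.0531% of all positions (0.0333% up and 0.0198% down). At chromosome 1, 1244587 (1p36.33), left 1, the oldest monkey, stood at 29% and the other monkeys at 0 to 5%, with a slope per year of 21.88 ± 3.78 points (SE, n = 21; limma adjusted p = 0.0244). At chromosome 22, 40081835 (22q13.1), left 1 stood at 20% and the others at 0, with a slope of 15.35 ± 2.87 (SE, n = 20; limma adjusted p = 0.0457). Without left 1 neither had a range wide enough to be tested, and 0 shore positions were called (122 at an unadjusted p under 0.05, 2.9% beside 3.52% of all positions). The next smallest p was at chromosome 7, 155251740 (7q36.3), with left 1 at 33% and a slope of 25.06 ± 4.78 (SE, n = 20; limma adjusted p = 0.052), which was 1.19 ± 6.4 without left 1. At an unadjusted p under 0.05 there were 124 shore positions (2.94%, background 4.06%), 99 up with age and 25 down. The background shares were 2.73% up and 1.33% down, in the fit with left 1. Without left 1 the shore counts were 84 up and 38 down, and those over all 192621 positions tested were 4514 up and 2266 down. The median slope was -0.545 points per year over the shore positions tested and 0.523 over all positions tested. Of the stretches, 0 passed for age (limma; smallest adjusted p 0.294, background 0.0565%, of which 0.0329% up and 0.0235% down), with 16 at an unadjusted p under 0.05 (5.37%, background 4.81%), 15 up and 1 down (background 3.71% up and 1.1% down). Without left 1 there were 12 (4.05%, beside 3.33% of all stretches), with 8 up and 4 down, where all 21277 stretches tested had 530 up and 178 down. The 2 leading stretches, on chromosome 10 from 25464091 to 25464112 (10p12.1) and chromosome 19 from 3093401 to 3093603 (19p13.3), had their highest level in left 1, at 11% and 86.8%, and slopes of 7.59 ± 1.89 (SE, n = 20) and 18.15 ± 5.19 points per year (SE, n = 23). Without left 1 the slope on chromosome 19 was 12.29 ± 8.67.

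Between hemispheres, 0 shore positions passed the limma test (smallest adjusted p 0.93, background 0%), with 132 at an unadjusted p under 0.05 (3.13%, background 3.48%), 66 higher and 66 lower in right samples (background 1.89% and 1.59%). The median difference, right minus left, was 0.584 points over the shore positions tested and 0.334 over all positions tested. The leading position, at chromosome 19, 4544339 (19p13.3), lay 328 bp from its run. Right samples ran from 71% to 93% and averaged 80.6% ± 6.93 (SD, n = 10), and left samples ran from 87% to 100% and averaged 94.8% ± 4.44 (SD, n = 10), so the groups overlapped. The adjusted difference was -14.47 ± 2.78 points (SE; limma adjusted p = 0.93). At chromosome 22, 20104001 (22q11.21), right samples ran from 2% to 20% and averaged 10.2% ± 6.13 (SD, n = 12), and left samples ran from 2% to 7% and averaged 2.91% ± 1.51 (SD, n = 11). At chromosome 17, 77769119 (17q25.3), right samples averaged 72% ± 12.1 (SD, n = 9) and left samples 52.9% ± 6.67 (SD, n = 11). Of the stretches, 0 passed for hemisphere (limma; smallest adjusted p 0.975, background 0%), with 8 at an unadjusted p under 0.05 (2.68%, background 3.12%), 5 higher and 3 lower in right samples (background 1.81% and 1.31%). The leading one, of 26 positions on chromosome 9 from 139742118 to 139742276 (9q34.3), averaged 30.6% ± 6.53 (SD, n = 12) in right and 24.6% ± 4.89 (SD, n = 11) in left samples, and its highest level was in right 9. The next, on chromosome 17 from 8907103 to 8907214 (17p13.1), averaged 3.91% ± 2.06 (SD, n = 12) in right and 2.25% ± 0.744 (SD, n = 11) in left samples, again with right 9 highest.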

How the data were processed

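Levels were read from a table in which the authors deposited, per position and monkey, the methylated share as a fraction from 0 to 1, rounded to 2 decimals. MspI digestion and bisulfite sequencing are per the labels' protocols, and Bismark 0.11.1 and build hg19 are per the submitters' processing notes. Coverage filters and strand handling were not given in the sources used here. No read counts are in the table, so depth is unknown and no counting interval was computed. Fractions were multiplied by 100. Contrasts within monkeys used sign-flip permutation and relations label permutation, with 100000 resamples. Linear models for positions and stretches used limma 3.58.1 under R 4.3.3, with empirical Bayes moderation and a mean trend, with score and age as terms, and hemisphere added for its own test. Benjamini-Hochberg adjustment ran over all 192151 positions or 21253 stretches tested (value in at least 20 monkeys; range of at least 10 points, or 5 for stretches, whose level was the plain mean of the values present). The fits and levels were tested on simulated data. Bands came from circlize 0.4.16. Members, lists and tests were chosen with earlier results of these data known. Named loci were the members with the smallest p for each term, the runs with the most shore positions, and the extreme runs and shores among runs with at least 20 shore positions. Python 3.11.15 was used for levels and figures.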

Additional observations from a re-analysis of the deposited data

How the results depend on the processing

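No paired analysis was possible because right and left samples came from separate monkeys whose numbers are accession order. The cause was not tested for the changes below, beyond the smaller number of positions or monkeys that entered. Alternatives restricted to concordant strand pairs or to low runs, and the pooled difference taken within runs, were chosen after seeing the data. The difference of shores from distant positions kept its sign and its call under every alternative run. The pooled difference of far from near shores did so too where runs were not split by level, and at runs under 20%. There it ran from 3.61 (dense runs of at least 100 positions) to 9.43 points (at least 30). At runs between 20% and 80% it was -9.48 points (sign-flip permutation p = 1e-05). At runs over 80%, where far and near positions came from different runs, it was -0.788 (sign-flip permutation p = 0.0705). These classes were cut on run levels of the same data, so their signs are not independent of the cut. The smallest chains gave no value with runs of at least 100 positions or at concordant strand pairs. The difference of far from near shores within runs was -1.43 at complete positions and -1.39 at concordant strand pairs, and 0.772 with runs of at least 100 positions and 5.53 with runs of at least 30. That of shores from dense runs was -0.119 with runs of at least 100 positions (permutation p = 0.226), -0.0795 with runs of at least 30, -2.92 at complete positions, -2.4 with neighbours joined at 100 bp, 4.09 at runs under 20% and 4.3 within runs. The correlation of the difference between far and near with the score passed at complete positions (-0.533). That of shore level with age was -0.0606 at complete positions, with a range of -0.0174 to 0.138 over fits that each left out 1 monkey. For the difference between far and near, right minus left was 0.0208 points at complete positions and 0.0837 without left 3 and right 9, with a range of -0.0869 to 0.0485 over such fits. Far exceeded near in median SD by 0.648 points in left monkeys alone, 0.706 without left 3 and right 9 and 0.271 at complete positions, and the median SD at intermediate shore positions was 11.6, 12.2 and 10.8 points under the same settings. Shore positions called for age numbered 0 on the logit scale (0 of 192151 positions in all), 4 without a range filter (139 of 344933), 0 at complete positions (17 of 72244), 0 with no variance trend (42 of 192151), 0 with identifier series in the model (24 of 192151) and 0 without left 1 (0 of 192621). The deposited fractions carry no depth, which limits every value here.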

Other observations

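Shore levels differed between chromosomes. The highest were on chromosome 22 at 34.4% ± 1.12 and on chromosome 19 at 33.8% ± 0.778, followed by chromosome 12 at 26.6% ± 1.24 (SD, n = 23 each). Chromosomes 13 and 18 stood at 3.96% ± 0.571 and 3.71% ± 0.915, and chromosome 21, with 15 shore positions, at 1.2% ± 0.914. Runs with a mean of 20% or more made up 21 of the 49 runs with a shore on chromosome 19 and 9 of 17 on chromosome 22, against 1 of 10 on chromosome 13 and 1 of 8 on chromosome 18. On chromosome 19 distant positions were also high, at 39.7% ± 0.581, but on chromosome 18 they stood at 38.5% ± 0.689 beside its low shores. These means cover different loci, and chromosomes were not tested against each other.

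Shore positions above a run in coordinate averaged 16.2% (n = 6246) and those below it 14.1% (n = 5978). Coordinate order has no biological direction, since the strand of nearby genes was not at hand. The 59 positions that lay within 2000 bp of a dense run on both sides came from the neighbourhood of 6 runs and averaged 25.7%, with a median of 13.8%.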
